A study of Mus musculus with 10 samples.

Results

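The genes described here encode nuclear subunits and assembly factors of respiratory complexes II, III and IV. They were taken from a list of 40 symbols, and 37 of these had a probe set that the platform annotation assigns to that symbol alone, out of 18193 genes so measured on the arrays. The brightest probe set by mean signal over the 10 arrays stood for a gene. Cox7b, Cox14 and Taco1 were not analysed here. The measured genes comprise 18 subunits and 19 assembly factors.

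Whole hearts were taken from female mouse embryos at 13.5 dpc (days after conception). The knockout group (Hccs het KO) held 5 pools from embryos with a heterozygous heart conditional knockout of Hccs, and the control group held 5 pools from female littermates. Each pool combined 4 to 5 hearts of one genotype and was hybridised to 1 Affymetrix array. The labels name neither the Cre driver nor the genotype of the controls beyond the word control, and strain is not given. Hccs is X-linked, so random X inactivation leaves heterozygous hearts with both HCCS-positive and HCCS-deficient heart cells, and whole hearts contain all cell types.

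Complex II (succinate dehydrogenase) passes electrons from succinate to ubiquinone, complex III passes them from ubiquinol to cytochrome c, and complex IV (cytochrome c oxidase) passes them from cytochrome c to oxygen. Complexes III and IV also pump or translocate protons. HCCS attaches haem to cytochrome c, the carrier between complexes III and IV, and to cytochrome c1, a subunit of complex III. Assembly factors are not part of the finished complexes; they insert haem, copper, iron-sulfur clusters or flavin, or guide subunits into place. The heart, with its dense mitochondria, is among the tissues most affected when these factors are lost.

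Each value is the log2 signal of a probe set, with array medians between 3.65 and 3.76. Changes are Hccs het KO minus control on that scale, fitted with limma over all 18193 genes, and a gene was called at a Benjamini-Hochberg adjusted p under 0.05. Hccs itself had log2 signals of 10.81, 10.73, 10.90, 10.57 and 10.39 in the knockout pools, against 11.11, 11.31, 11.28, 11.20 and 11.25 in the control pools. Every knockout pool lay below every control pool, and Hccs fell by 31.7% (log2 change -0.55, SE 0.09, limma adjusted p = 0.0225). Without control replicate 2 or 3 or knockout replicate 2 or 4 the call was lost (limma adjusted p from 0.0511 to 0.0563), and without both arrays numbered 3 (0.0714). The 5-prime control probe set for 18S ribosomal RNA was 8.17 ± 0.35 in knockout and 10.05 ± 1.25 in control arrays (log2, mean ± SD, n = 5 each, exact two-sided permutation p = 0.0238), and control replicate 3, at 8.06, lay within the knockout range. Its part in the results below was not tested.

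Of the 37 genes 3 rose, none fell and 34 did not pass, in limma with Benjamini-Hochberg adjustment. The 3 were Uqcrc2, a core subunit of complex III, Ttc19, a factor that maintains complex III, and Cox15, which makes haem A for complex IV. That is 8.11% of the genes, where 2.58% of all genes were called in either direction, 1.63% higher and 0.945% lower. At an unadjusted limma p under 0.05 there were 17 of the 37 genes (45.9%), 10 higher and 7 lower. Over all genes 20.6% reached that mark, 13.2% higher and 7.48% lower. The groups did not overlap for 4 of the 37, 2 higher and 2 lower in knockout pools. Over all genes 5.79% did not overlap, 3.86% higher and 1.92% lower. Among the 939 genes at a mean signal of 12 or more, 54 were higher and 66 lower without overlap. The median log2 change was 0.037 over the 37 genes and 0.025 over all genes.

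Subunits and assembly factors lay on different sides of 0 in their medians. Of the 18 subunits 11 had a negative and 7 a positive log2 change, with a median of -0.052. Of the 19 assembly factors 5 had a negative and 14 a positive log2 change, with a median of 0.054. Over all genes 39.5% had a negative change. At an unadjusted limma p under 0.05, 6 subunits were lower (33.3%) and 3 higher (16.7%), whereas 1 assembly factor was lower (5.26%) and 7 were higher (36.8%). Over all genes it was 7.48% lower and 13.2% higher. This split was not tested. Subunit signals were the brighter, with 16 of 18 at a mean of 12 or more and a median change of -0.098 among those 16. Over all 939 genes at that level the median was -0.022 and 56.9% were negative. Bright genes of any kind reached a small p more often: 38.2% of the 939 had an unadjusted p under 0.05, 20.1% lower, and 6.39% were called. Of the 16 bright subunits 50% had an unadjusted p under 0.05, 37.5% lower, and 6.25% were called, a share close to that of the 939. When a gene's probe sets were averaged, the subunit median moved to 0.0086 and that of the assembly factors to 0.083. With the most variable probe set of each gene they were 0.0028 and 0.13.

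**Figure D1:**
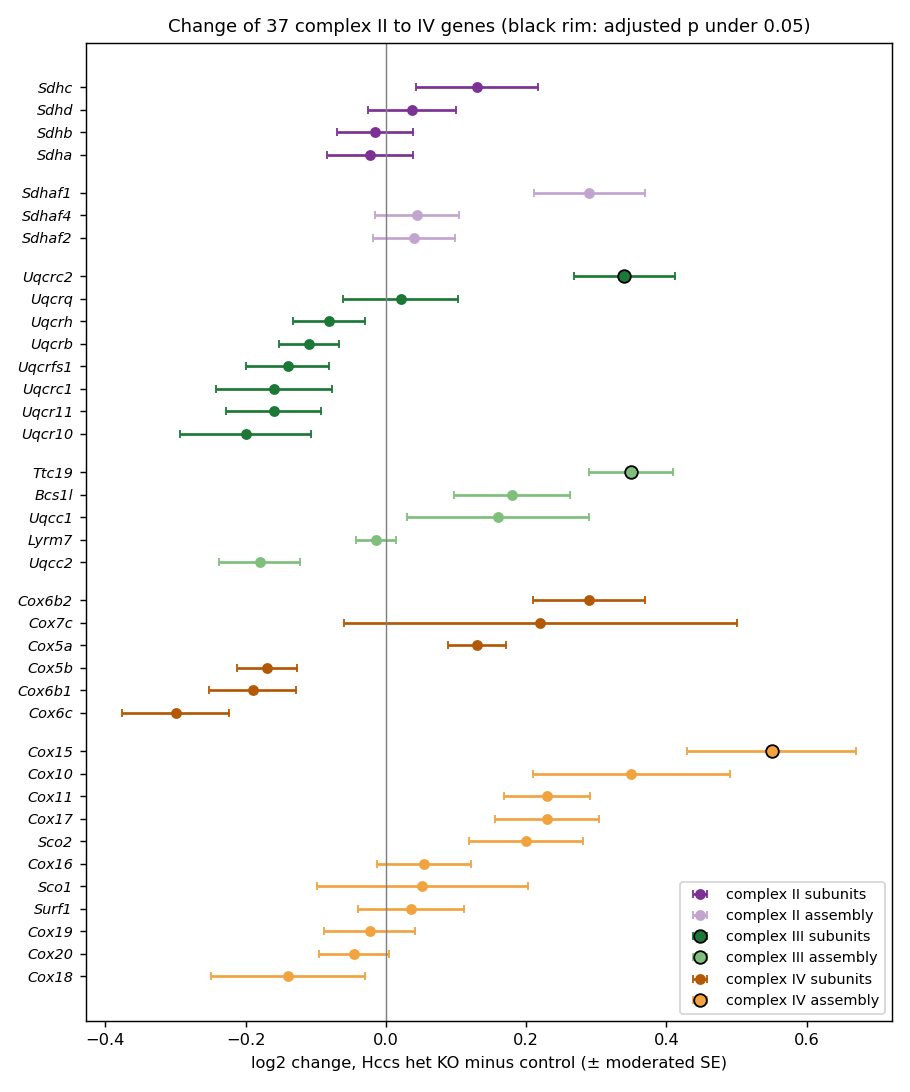
Log2 change (Hccs het KO minus control, horizontal axis) of the 37 measured genes, grouped by complex and role, with the moderated standard error as bars and a black rim for an adjusted p under 0.05. Uqcrc2, Ttc19 and Cox15 carry the rim; the lowest change, -0.30, is that of Cox6c, and the highest, 0.55, that of Cox15.

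Single arrays weighed on these medians. Knockout replicate 3 had the lowest signal of all 10 arrays for 12 of the 18 subunits, and the lowest of the knockout arrays for 15. Control replicate 5 had the highest signal of all 10 for 9 of the 18. Among the 19 assembly factors the lowest array was control replicate 3 for 8, and it was the lowest control array for 12. Without knockout replicate 3 the subunit median was -0.013, with 9 of 18 negative. Without control replicate 3 the median of the assembly factors was 0.086, with 12 of 19 positive. Without both arrays numbered 3 the subunit median was -0.030 and the assembly factor median 0.086.

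The mean deviation of the subunits from their means over the 10 arrays was 0.062, 0.049, -0.17, 0.030 and -0.026 in the knockout arrays, against -0.042, 0.052, -0.011, -0.032 and 0.085 in the control arrays. The ranges overlapped, with knockout replicate 3 alone below all controls. For the assembly factors it was 0.058, 0.10, -0.0063, 0.099 and 0.055 in the knockout arrays, against -0.13, -0.027, -0.17, -0.038 and 0.056 in the control arrays. Here 3 knockout arrays lay above every control, and the other 2 lay below control replicate 5 only.

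Markers of cell types were measured beside these genes. Of 14 cardiomyocyte markers 4 fell, none rose and 10 did not pass in limma, 13 had a negative change and the median was -0.22. The 4 were Tnni1, Tnnc1, Myh7 and Myl2 (log2 changes -0.30, -0.30, -0.47 and -0.23). At an unadjusted limma p under 0.05 there were 11, all lower (78.6%). At that mark 7.48% of all genes were lower, and 20.1% of the 939 genes at a mean signal of 12 or more. Over all genes 0.945% were called lower and 39.5% had a negative change. Among the 939 genes at a mean signal of 12 or more, 29 were called lower and 56.9% had a negative change. The mean log2 signal of the 14 markers ran from 14.65 to 14.86 in knockout arrays and from 14.94 to 15.10 in control arrays, so the groups did not overlap. Tnnt2 and Actc1, among the most abundant transcripts of heart muscle, averaged 15.82 and 16.07 in knockout and 15.95 and 16.20 in control arrays, as is usual for heart. In whole hearts fewer cardiomyocytes and less of a transcript per cardiomyocyte cannot be told apart, and the part of the markers in the subunit changes was not tested. Of 10 endothelial and endocardial genes none passed in limma. At an unadjusted p under 0.05 there were 5, 1 higher and 4 lower (50%, against 20.6% of all genes). The mean of the 10 ran from 9.68 to 9.83 in knockout and from 9.73 to 9.97 in control arrays. Of 11 epicardial and mesenchymal genes only Tcf21, a transcription factor of epicardium-derived fibroblasts, rose (log2 change 0.61, limma adjusted p = 0.0376), and their mean ran from 11.53 to 11.88 in knockout and from 11.46 to 11.77 in control arrays. No smooth muscle (5 genes), erythroid (6), macrophage (7) or neural (2) marker passed in limma. At an unadjusted p under 0.05 there were 2, 1, 1 and 0 (40%, 16.7%, 14.3% and 0%, against 20.6% of all genes). The mean ranges of these 4 lists overlapped between groups. Erythroid genes stood at 10.70 to 11.13 in knockout and 10.71 to 11.59 in control arrays, macrophage genes at 7.57 to 7.97 in knockout and 7.53 to 7.84 in control arrays, and smooth muscle genes at 10.41 to 10.80 in knockout and 10.07 to 10.99 in control arrays. The neural pair stood at 3.88 to 4.24 in knockout and 3.88 to 6.65 in control arrays. The 6.65 was that of control replicate 3, where Tubb3 was at 8.02 and Sox10 at 5.28. The brightest markers of these lists were Emcn and Tek (endothelial), Col3a1 and Postn (mesenchymal), Acta2 and Tagln (smooth muscle), Hbb-y and Hba-x (erythroid), Csf1r and Lyz2 (macrophage) and Sox10 and Tubb3 (neural), none of which passed.

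No gene of complex II passed. Its 4 subunits had log2 changes from -0.023 to 0.13, none passed in limma and none had an unadjusted p under 0.05. Sdha, the flavoprotein that oxidises succinate, had log2 signals of 13.04, 13.06, 12.80, 13.03 and 13.03 in the knockout pools, against 12.89, 13.12, 12.97, 13.04 and 13.05 in the control pools. Sdhb, the iron-sulfur subunit beside it, had 13.91, 13.89, 13.67, 13.95 and 13.82 in knockout, against 13.81, 13.93, 13.80, 13.86 and 13.90 in control pools. Both groups covered the same range for these genes, apart from low values in knockout replicate 3. The log2 changes were -0.023 (SE 0.061) for Sdha and -0.016 (SE 0.054) for Sdhb. The membrane anchors Sdhc and Sdhd, which hold the ubiquinone site and a haem b, had changes of 0.13 (SE 0.087, limma adjusted p = 0.417) and 0.037 (SE 0.063, limma adjusted p = 0.766). Sdhc had 12.56, 12.72, 12.56, 12.85 and 12.62 in knockout pools, against 12.50, 12.57, 12.28, 12.55 and 12.74 in control pools. Sdhd had 12.94, 13.00, 12.83, 13.07 and 12.86 in knockout pools, against 12.81, 12.97, 12.77, 12.96 and 13.01 in control pools. The groups overlapped for both genes. A dimmer Sdhd probe set, at a mean of 11.61, had a larger change of 0.32 (SE 0.089, limma adjusted p over all probe sets = 0.0977). Of the Sdha probe sets the 2 brighter agreed, at -0.023 and -0.038, while a dim one, at 4.72, had a change of -0.83 (SE 0.32, limma adjusted p over all probe sets = 0.192). Averaging the probe sets gave Sdha a change of -0.22 (limma adjusted p = 0.255).

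Among the assembly factors of complex II, Sdhaf1, which serves iron-sulfur insertion into SDHB, had the largest change. Its log2 signals were 9.37, 9.41, 9.36, 9.31 and 9.44 in the knockout pools, against 8.98, 9.13, 8.89, 9.07 and 9.37 in the control pools. The knockout pools were tightly grouped, and of the controls only replicate 5 reached them. The change of 0.29 did not pass (SE 0.079, limma adjusted p = 0.0875). It passed without control replicate 5 (0.36, limma adjusted p = 0.026) and with array weights (limma adjusted p = 0.0398). Sdhaf2, needed to attach flavin to SDHA, and Sdhaf4, which binds the flavinated SDHA, had changes of 0.040 (SE 0.059) and 0.044 (SE 0.060). Sdhaf2 had 10.56, 10.50, 10.46, 10.58 and 10.61 in knockout pools, against 10.53, 10.53, 10.29, 10.60 and 10.56 in control pools. Sdhaf4 had 10.61, 10.46, 10.46, 10.65 and 10.49 in knockout pools, against 10.44, 10.56, 10.34, 10.53 and 10.59 in control pools. In both the groups overlapped, with control replicate 3 lowest.

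In complex III, 1 of 8 subunits rose, 7 did not pass and 6 had a negative change, with a median of -0.13. Uqcrc2, a core protein of the matrix side, had log2 signals of 14.93, 14.96, 14.93, 14.85 and 14.69 in the knockout pools, against 14.39, 14.71, 14.58, 14.54 and 14.43 in the control pools. Only knockout replicate 5 and control replicate 2 crossed, by a small margin. Uqcrc2 rose 1.27-fold (log2 change 0.34, SE 0.072, limma adjusted p = 0.0442). Its dimmer probe set, at 13.91, had a change of 0.062 (SE 0.086), so the probe sets differed in size. The call was lost when any 1 array other than control replicate 2 or knockout replicate 5 was left out, and the adjusted p over all alternatives ran from 0.0226 to 0.163.

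Uqcrc1, the partner of Uqcrc2 in the core, pointed the other way without passing. It had 12.92, 12.79, 12.50, 12.66 and 12.62 in knockout pools, against 12.81, 12.74, 12.89, 12.83 and 13.04 in control pools. Its change was -0.16 (SE 0.083, limma adjusted p = 0.297). The difference of the 2 log2 signals within an array asks whether the partners changed unequally. A shift that moves both partners alike drops out of it, while one that moves them unequally stays. Uqcrc2 minus Uqcrc1 was 2.01, 2.17, 2.43, 2.19 and 2.06 in knockout arrays, against 1.59, 1.97, 1.70, 1.71 and 1.38 in control arrays, without overlap. It was larger in the knockouts by 0.50 (exact two-sided permutation p = 0.00794, the smallest that 5 against 5 arrays allow, and 0.0159 adjusted over 4 such pairs). With each gene's probe sets averaged it was 0.36 at the same adjusted p. Knockout replicate 3, with the lowest Uqcrc1 signal, had the largest difference, and without that array the change was 0.44. The 4 pairs were chosen with earlier results of these data known, so these p do not come from an independent choice.

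The other complex III subunits had changes from -0.20 to 0.021, none past the threshold. Uqcrfs1, the Rieske iron-sulfur protein, had 13.40, 13.22, 13.07, 13.19 and 13.20 in the knockout pools, against 13.27, 13.32, 13.35, 13.40 and 13.44 in the control pools. Knockout replicate 1 lay among the controls and the other 4 knockout pools lay below them. The change was -0.14 (SE 0.059, limma adjusted p = 0.219). Uqcrb, a small subunit near the ubiquinone site, had 15.55, 15.49, 15.35, 15.45 and 15.40 in knockout, against 15.52, 15.56, 15.52, 15.59 and 15.62 in control pools, a change of -0.11 (SE 0.043, limma adjusted p = 0.181). Its other probe set, at 13.88, had a change of 0.29 (SE 0.085, limma adjusted p over all probe sets = 0.109), so the direction of Uqcrb depends on the probe set. Uqcr10 and Uqcr11, the smallest subunits, had changes of -0.20 (SE 0.093) and -0.16 (SE 0.068). Uqcr10 also had dimmer probe sets that pointed up, by 0.070 and 0.23. Uqcrh, the hinge protein beside cytochrome c1, and Uqcrq had changes of -0.081 (SE 0.051) and 0.021 (SE 0.082).

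Of the 5 complex III assembly factors Ttc19 rose, 4 did not pass, and the median change was 0.16. TTC19 clears fragments of the Rieske protein from the finished complex. Ttc19 had log2 signals of 7.89, 8.14, 7.88, 7.94 and 8.04 in the knockout pools, against 7.55, 7.65, 7.60, 7.57 and 7.75 in the control pools. Every knockout pool lay above every control pool; over all genes 3.86% did so. Ttc19 rose 1.28-fold (log2 change 0.35, SE 0.060, limma adjusted p = 0.0246), the smallest adjusted p of the 37 genes. Its dimmer probe sets, at 5.45 and 5.17, had changes of 0.25 (SE 0.11) and -0.65 (SE 0.46), and with all 3 averaged the change was -0.013. Without 1 array the call was lost for control replicates 1, 2, 3 and 4 and knockout replicates 4 and 5 (limma adjusted p from 0.0511 to 0.0584).

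The stretch of 250 bases before to 50 after the gene start is printed for Ttc19 and, further on, for Cox15, the called genes with an entry in the RefSeq promoter table (build GRCm38.p6); Uqcrc2 is named only. The Ttc19 window is chr11:62281223-62281522 on the plus strand, written 5′ to 3′, and the capitals mark the core letters bound by NRF1, a transcription factor known for respiratory chain genes.

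Ttc19 promoter: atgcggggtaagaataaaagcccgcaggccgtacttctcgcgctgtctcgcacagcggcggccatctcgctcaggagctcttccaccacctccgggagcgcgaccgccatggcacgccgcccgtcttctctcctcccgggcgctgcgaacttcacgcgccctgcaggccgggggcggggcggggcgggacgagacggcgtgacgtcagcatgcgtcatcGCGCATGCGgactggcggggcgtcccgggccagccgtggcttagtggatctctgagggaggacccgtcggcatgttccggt

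Uqcc2, which with Uqcc1 guides the early assembly of cytochrome b, was the only assembly factor lower at an unadjusted limma p under 0.05. It had 11.72, 11.51, 11.54, 11.49 and 11.46 in knockout pools, against 11.69, 11.71, 11.63, 11.76 and 11.85 in control pools. Knockout replicate 1 again lay among the controls, with the other 4 below them. The change was -0.18 (SE 0.058, limma adjusted p = 0.127), and without knockout replicate 1 it passed, with an adjusted p of 0.0299. Uqcc1 had a change of 0.16 (SE 0.13). Bcs1l, which translocates the Rieske protein into complex III, had 9.29, 9.21, 9.18, 9.25 and 9.21 in knockout pools, against 9.12, 9.14, 8.73, 9.03 and 9.23 in control pools, a change of 0.18 (SE 0.083, limma adjusted p = 0.265). The only Lyrm7 probe set, for a chaperone of the Rieske protein, averaged 1.96 in knockout and 1.98 in control arrays, below the array medians, so its change of -0.014 carries no information on the transcript.

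In complex IV none of 6 measured subunits passed in limma. At an unadjusted p under 0.05 there were 3 lower (50%) and 2 higher (33.3%). Over all genes 7.48% were lower and 13.2% higher at that mark. Among the 939 genes at a mean signal of 12 or more it was 20.1% lower and 18.1% higher. Cox5b, a zinc-binding subunit, had log2 signals of 14.71, 14.78, 14.58, 14.68 and 14.69 in the knockout pools, against 14.82, 14.90, 14.83, 14.80 and 14.93 in the control pools. Every knockout pool lay below every control pool, as 1.92% of all genes did. The change was -0.17 (SE 0.043, limma adjusted p = 0.0689), and it passed with array weights (limma adjusted p = 0.0476). The 3 other bright Cox5b probe sets, at means from 14.32 to 14.51, had changes of -0.025, -0.17 and -0.15. Cox6c, a small membrane subunit, was the other gene without overlap in this direction, at 14.09, 14.00, 13.69, 14.02 and 14.05 in knockout pools, against 14.21, 14.20, 14.24, 14.28 and 14.39 in control pools. Its change was -0.30 (SE 0.076, limma adjusted p = 0.0734), and -0.22 without knockout replicate 3. With genes below the median level left out it passed (limma adjusted p = 0.0473). A second Cox6c probe set of nearly the same brightness, 13.92, pointed up by 0.20 (SE 0.073, limma adjusted p over all probe sets = 0.174). The probe sets of Cox6c thus give opposite directions.

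**Figure D2:**
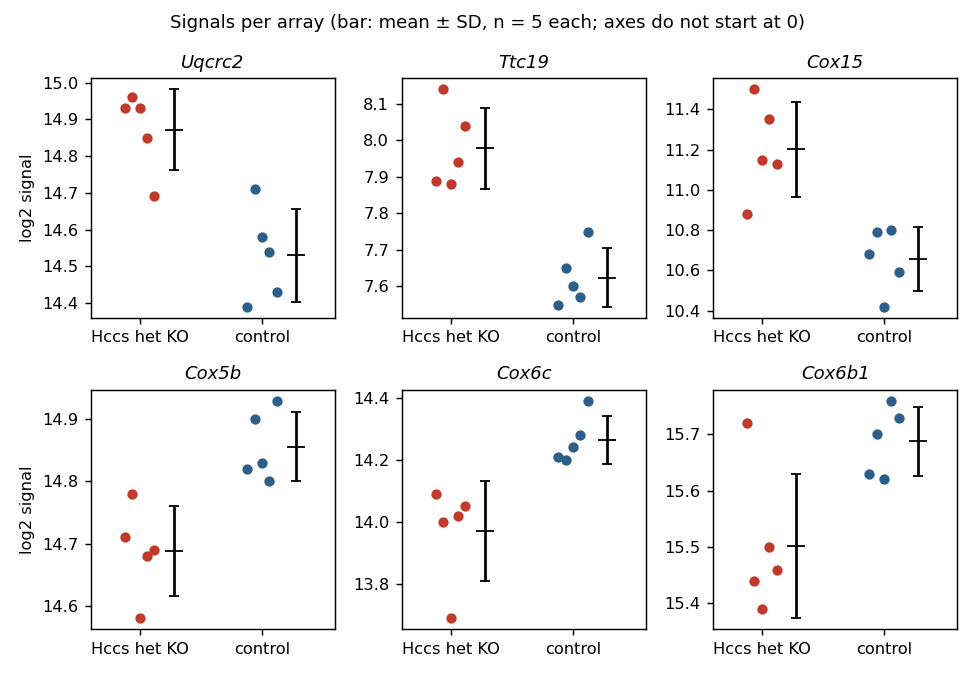
Log2 signals of 6 genes in the knockout (red) and control (blue) arrays, with mean ± SD beside the points (n = 5 each; the vertical axes do not start at 0). Ttc19 and Cox15 have all knockout arrays above all controls, Cox5b and Cox6c all below; for Cox6b1 knockout replicate 1, at 15.72, lies among the controls.

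Cox6b1, at the dimer interface on the cytochrome c side, had 15.72, 15.44, 15.39, 15.50 and 15.46 in knockout pools, against 15.63, 15.70, 15.62, 15.76 and 15.73 in control pools. Apart from knockout replicate 1 the groups were separate. The change was -0.19 (SE 0.062, limma adjusted p = 0.143), and the other Cox6b1 probe set gave -0.18 (SE 0.053). Without knockout replicate 1 Cox6b1 was called lower. Cox6b2, the isoform known mainly from testis, pointed the other way at a far lower signal. It had 9.01, 9.05, 8.92, 9.12 and 9.19 in knockout pools, against 8.96, 8.58, 8.78, 8.65 and 8.88 in control pools, a change of 0.29 (SE 0.080, limma adjusted p = 0.088). Only control replicate 1 lay within the knockout range.

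Cox5a, which sits beside Cox5b in the matrix part, had 15.24, 15.39, 15.34, 15.40 and 15.36 in the knockout pools, against 15.21, 15.23, 15.29, 15.13 and 15.21 in the control pools. Only knockout replicate 1 fell inside the control range. The change was 0.13 (SE 0.041, limma adjusted p = 0.122), and without knockout replicate 1 it was 0.16 and passed (limma adjusted p = 0.0481). A further probe set gave 0.20 (SE 0.047), and the dimmest of the 3, at 14.55, gave -0.092 (SE 0.056). Cox5b minus Cox5a was -0.53, -0.61, -0.76, -0.71 and -0.67 in knockout arrays, against -0.39, -0.34, -0.46, -0.33 and -0.28 in control arrays, without overlap. It was lower in the knockouts by 0.30 (change -0.30, exact two-sided permutation p = 0.00794, 0.0159 adjusted over the 4 pairs). Averaging each gene's probe sets gave -0.17 at the same adjusted p. Knockout replicate 3 had the lowest difference, and without that array the change was -0.27. This pair too was chosen with earlier results of these data known. Cox7c, whose probe sets were dim at 7.44 and 5.49, ranged from 7.19 to 7.89 in knockout and from 6.72 to 8.28 in control pools.

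**Figure D3:**
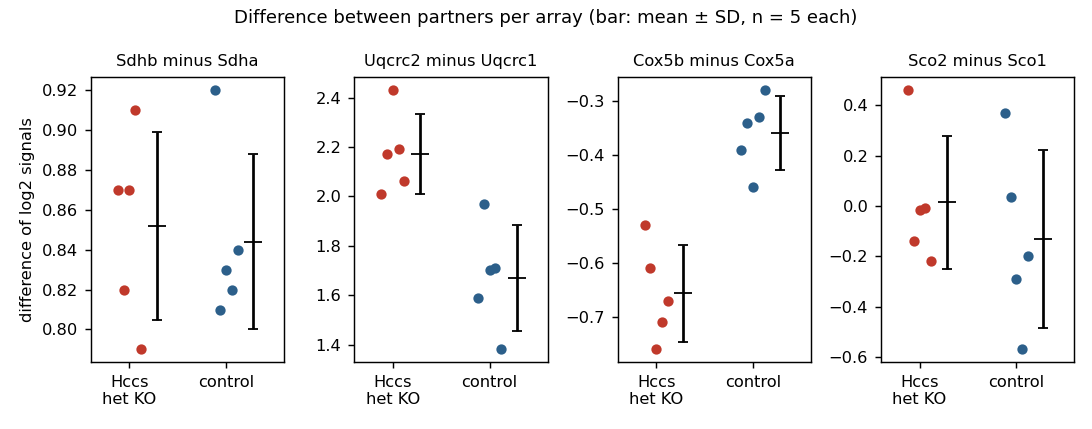
Difference between the log2 signals of partner genes within each array, in knockout (red) and control (blue) arrays, with mean ± SD (n = 5 each). The groups do not overlap for Uqcrc2 minus Uqcrc1 and for Cox5b minus Cox5a, and overlap for Sdhb minus Sdha and Sco2 minus Sco1.

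Among 11 measured complex IV assembly factors Cox15 rose and 10 did not pass. At an unadjusted limma p under 0.05 there were 5, all higher (45.5%, where 13.2% of all genes were higher): Cox15, Cox10, Cox11, Cox17 and Sco2. These serve haem A synthesis or copper delivery. Sco1 and Cox19, also of copper handling, did not reach that mark (log2 changes 0.052 and -0.023). Cox15, haem A synthase, had log2 signals of 10.88, 11.50, 11.15, 11.35 and 11.13 in the knockout pools, against 10.68, 10.79, 10.42, 10.80 and 10.59 in the control pools. All knockout pools lay above all control pools, knockout replicate 1 only just. Cox15 rose 1.46-fold (log2 change 0.55, SE 0.12, limma adjusted p = 0.0448). Its 3 other probe sets, at means from 8.09 to 10.27, all pointed up by less, 0.16, 0.23 and 0.17, and the mean of the 4 gave 0.28 (limma adjusted p = 0.101). The call was kept without knockout replicate 1 and lost without each of the other 9 arrays (limma adjusted p from 0.0707 to 0.104). It was also lost with quantile normalization (0.52, limma adjusted p = 0.0535).

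The Cox15 window is chr19:43752951-43753250 on the minus strand, 5′ to 3′, with the core letters of Ets factors in capitals, a family that includes GABP, known for binding the promoters of nuclear mitochondrial genes.

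Cox15 promoter: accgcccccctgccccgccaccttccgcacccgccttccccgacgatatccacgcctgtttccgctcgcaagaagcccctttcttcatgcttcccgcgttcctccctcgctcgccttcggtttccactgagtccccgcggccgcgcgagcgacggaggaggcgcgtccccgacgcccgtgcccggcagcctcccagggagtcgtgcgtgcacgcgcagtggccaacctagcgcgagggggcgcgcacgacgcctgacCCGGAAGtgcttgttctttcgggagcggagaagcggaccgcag

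Cox10, haem O synthase and the step before Cox15, had 8.16, 8.24, 7.82, 8.13 and 8.13 in knockout pools, against 7.65, 7.56, 7.48, 7.75 and 8.25 in control pools. Control replicate 5 exceeded every knockout pool, and the change of 0.35 (SE 0.14, limma adjusted p = 0.199) did not pass. Without control replicate 5 Cox10 was called higher. A second Cox10 probe set of similar signal, 7.52, had a change of -0.026 (SE 0.13).

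The copper factors showed smaller changes. Cox17, the copper chaperone of the intermembrane space, had 12.82, 12.85, 12.90, 12.94 and 12.74 in knockout pools, against 12.37, 12.76, 12.74, 12.59 and 12.66 in control pools, a change of 0.23 (SE 0.074, limma adjusted p = 0.136). Only knockout replicate 5 reached down into the control range. Cox11, which delivers copper to the CuB site, had 10.70, 10.77, 10.81, 10.84 and 10.75 in knockout pools, against 10.48, 10.56, 10.37, 10.60 and 10.71 in control pools. Its change was 0.23 (SE 0.061, limma adjusted p = 0.0798), and control replicate 5 was the only control that overlapped. Cox11 passed without control replicate 5 (0.27, limma adjusted p = 0.0429) and with array weights (limma adjusted p = 0.0357). Sco1 and Sco2 serve the CuA site. Sco2 had 7.02, 6.95, 6.76, 6.87 and 6.81 in knockout pools, against 6.71, 6.78, 6.79, 6.40 and 6.73 in control pools, a change of 0.20 (SE 0.081, limma adjusted p = 0.209). Sco1 had 6.56, 7.09, 6.78, 6.87 and 7.02 in knockout pools, against 6.34, 6.74, 7.08, 6.97 and 6.94 in control pools, a change of 0.052 (SE 0.15). The groups overlapped for both. Sco2 minus Sco1 was 0.46, -0.14, -0.018, -0.007 and -0.22 in knockout arrays, against 0.37, 0.036, -0.29, -0.57 and -0.20 in control arrays. It changed by 0.15 (exact two-sided permutation p = 0.452, 0.603 adjusted over the 4 pairs), with SDs of 0.26 in knockout and 0.35 in control arrays. Sdhb minus Sdha was 0.87, 0.82, 0.87, 0.91 and 0.79 in knockout arrays, against 0.92, 0.81, 0.83, 0.82 and 0.84 in control arrays. It changed by 0.0076 (exact two-sided permutation p = 0.794), with means of 0.85 ± 0.049 in knockout and 0.84 ± 0.044 in control arrays.

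The remaining complex IV factors had changes from -0.14 to 0.054 and limma adjusted p of 0.496 or more. Surf1, which acts early in assembly around COX1, had a change of 0.036 (SE 0.076), and Cox16 of 0.054 (SE 0.067). Cox19, another protein of copper handling, had -0.023 (SE 0.065). Cox18 and Cox20, which handle the mitochondrially encoded COX2, had -0.14 (SE 0.11) and -0.045 (SE 0.050).

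Different probe sets of a gene did not always agree. Among 15 of the genes with at least 2 probe sets at a mean of 8 or more, all such probe sets had the same sign in 11. In 4 of them, Cox5a, Cox6c, Uqcr10 and Uqcrb, signs were mixed. These are all subunits, as are most of the 15. Why the probe sets differ was not tested.

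**Figure D4:**
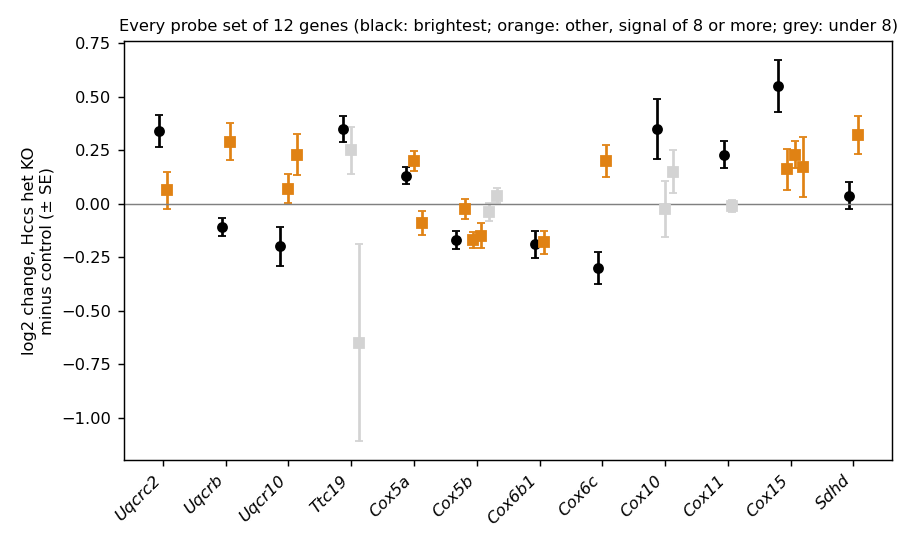
Log2 change (Hccs het KO minus control) with SE for every probe set of 12 genes; black circles are the brightest probe set, orange squares others with a mean signal of 8 or more, grey squares those under 8. Cox6c, Uqcrb, Uqcr10 and Cox5a have bright probe sets on both sides of 0, whereas all Cox15 probe sets lie above it.

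A further 26 measured genes of these complexes that are not among the 37 were set beside them, from a list of 28. None passed in limma, 1 was higher and 5 lower at an unadjusted p under 0.05, and the median change was -0.013. The share at that mark was 23.1%, 3.85% higher and 19.2% lower. Over all genes it was 20.6%, 13.2% higher and 7.48% lower, and among the 939 genes at a mean signal of 12 or more 38.2%. The brightest of the 26, Cox6a1, Cox7a2 and Cox4i1, are subunits of complex IV. They averaged 15.37, 15.16 and 14.91 in knockout and 15.58, 15.19 and 15.08 in control arrays. Their log2 changes were -0.21 (SE 0.063), -0.038 (SE 0.040) and -0.17 (SE 0.054), with limma adjusted p of 0.118, 0.614 and 0.119.

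The promoter windows of 33 of the 40 genes were in the RefSeq table, and 3 sets of core letters were searched on both strands. The Ets core CCGGAAG was in the windows of 15 of the 33 genes (45.5%), against 15% of the 14453 measured genes with a window. The NRF1 core GCGCANGCG was in 7 of 33 (21.2%), against 11.4%, and the YY1 core AAGATGGC in 3 of 33 (9.09%), against 4.07%. The Ets core was in 10 of the 19 assembly factor windows and 5 of the 14 subunit windows. Of the 9 measured assembly factors with it, 8 had a positive change, with a median of 0.054; of the 8 measured without it, 5 had a positive change, with a median of 0.10. A match of letters describes the window and not a bound site.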

How the data were processed

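Total RNA of pools of 4 to 5 hearts was hybridised to Affymetrix arrays, and the authors deposited log2 signals for 45101 probe sets, for which RMA and Partek are named per the submitters' processing notes. Versions and background option are not given in the sources used here. All 10 columns were used, and genotypes came from the labels.

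Probe sets with exactly 1 symbol in the platform annotation (34945) were kept, and the brightest stood for a gene (18193 genes). Changes were fitted with limma 3.58.1 in R 4.3.3 (genotype only, two-sided, no filter on low values), adjusted over all genes by Benjamini-Hochberg with a threshold of 0.05. Partner differences and the 18S signal were compared by exact two-sided permutation over all 252 splits. Plots used matplotlib 3.10.9 in Python 3.11.15.

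The genes, lists and partner pairs were chosen with earlier results of these data known. Per-array values are given for called genes, the 3 genes with the smallest p in each of the 6 role groups, the pairs and Hccs; those of Cox6b1 and Cox10 were added after their values were seen. Of other genes of the complexes the 3 brightest are named, and of markers a few. In simulated data 66 or 67 genes were shifted by each of 3 sizes, with noise drawn independently for each gene and array. There limma recovered 41.8% of genes shifted by 0.3 log2 units, 77.6% of those by 0.5 and 92.4% of those by 1. It made 9 false calls of 150 over 18193 genes. Deviations shared by many genes of an array were not simulated, so these shares need not hold for the arrays here. Alternatives tried were median centring, quantile normalization, a block on replicate number, 2 filters on low signal, other choices of probe set, trend and robust eBayes, array weights, and arrays left out. The number of arrays limits the precision. Signal over background was not given, so no detection calls were made.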

Additional observations from a re-analysis of the deposited data

Results flagged for a closer look

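In 86 groups of 5 arrays checked (37 genes, Hccs, the 4 pairs and the 18S signal in each genotype), 8 had 1 array far from the other 4 by Dixon's criterion of 0.71 for gap over range, and chance gives about 1 in 20 groups. Knockout replicate 3 stood low for Sdha (12.80, others 13.03 to 13.06), for Cox6c (13.69, others 14.00 to 14.09) and for Cox10 (7.82, others 8.13 to 8.24). Control replicate 3 stood low for Sdhaf2 (10.29, others 10.53 to 10.60) and for Cox18 (9.45, others 9.66 to 9.71). Control replicate 4 stood low for Sco2 (6.40, others 6.71 to 6.79), and control replicate 1 stood high for Sdhb minus Sdha (0.92, others 0.81 to 0.84). Knockout replicate 4 stood high for Cox16 (9.61, others 9.30 to 9.38). Thus 5 of the 8 are arrays numbered 3.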

How the results depend on the processing

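Of the 37 genes, 0 to 4 were called higher and 0 to 2 lower with 1 array left out, and of all genes 105 to 1042. Without both arrays numbered 3 it was 0 higher and 30 of all genes. Same-numbered arrays had correlations of deviations from -0.091 to 0.077 over all genes, and 1 of 5 knockout arrays correlated best with its own number. These values show no pairing by number, but they cannot exclude one. With the replicate number as a block 0 were called higher, and 36 of all genes. Averaging each gene's probe sets gave 0 higher. The median filter gave 1 lower (Cox6c) and 759 of all genes, since fewer genes were tested. Array weights gave 5 higher, 1 lower (Cox5b) and 945 of all genes. Under all other settings these counts stayed within 1.5 times, but Cox15 lost its call with quantile normalization and Ttc19 with the most variable probe set. With the block the limma adjusted p were 0.0756 for Uqcrc2, 0.0581 for Ttc19, 0.0735 for Cox15 and 0.0735 for Hccs. Ttc19 turned to -0.013 with the mean of probe sets and to -0.65 with the most variable one, and Uqcrb to 0.089 and 0.29. Sdhb minus Sdha became 0.20 with averaged probe sets (exact permutation, adjusted p = 0.0952) and 0.82 (exact permutation, adjusted p = 0.0423) with the most variable probe set, which for Sdha is one at a mean of 4.72, near the array medians. With 1 array left out the pair differences ran from -0.0076 to 0.026 for Sdhb minus Sdha, 0.43 to 0.58 for Uqcrc2 minus Uqcrc1, -0.33 to -0.27 for Cox5b minus Cox5a and 0.036 to 0.27 for Sco2 minus Sco1. The groups did not overlap for Uqcrc2 minus Uqcrc1 and Cox5b minus Cox5a, so leaving out 1 array could not lose their call. Without both arrays numbered 3 these differences were 0.45 and -0.30 (exact permutation, adjusted p = 0.0571, the smallest 4 against 4 arrays allow here). Sdhb minus Sdha was then -0.0016. Uncalled changes near 0 crossed it with 1 array left out: Sdha ran from -0.054 to 0.026, Sdhb from -0.041 to 0.028, Sco1 from -0.066 to 0.13 and Sdhaf2 from -0.013 to 0.065. Without both arrays numbered 3 Sdha was 0.015 and Sdhb 0.013. The cause of these shifts was not tested.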
